A study of Neurospora crassa with 12 samples.

Results

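Expression of 9 genes of nitrogen assimilation and its regulation was described in germinating conidia, the asexual spores, of *Neurospora crassa*. The members were taken by gene ID from a list drawn up for this purpose, and all 9 were found among the 10592 genes of the count table. They comprise 3 regulators (*nit-2*, *nit-4*, and *nmr*), 3 genes of the nitrate pathway (*nit-10*, *nit-3*, and *nit-6*), and 3 genes of glutamate and glutamine metabolism (NCU01744, *gdh-1*, and *gln-1*). The list named NCU01744 as *am*, but in the RefSeq annotation of assembly NC12 this ID is *en(am)-2*, a glutamate synthase gene, and *am* is NCU01195. NCU01744 was therefore described as *en(am)-2*, and *am* was given beside the members.

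RNA was sequenced from conidia of the wild-type *mat A* strain FGSC2489, spread on cellophane over potato dextrose agar (PDA) and grown at 25°C under continuous white light. No mutation, agent, or second strain was compared, and the 12 libraries were compared by stage only. The paper states that the conidia were harvested from cultures on another medium, Bird medium. Stage therefore cannot be told apart from time since the move to PDA. Fresh spores were sampled 15 min after inoculation, spores at first polar growth after 120 min, germ tubes that had doubled the long axis after 240 min, and hyphae at their first branch after 360 min (3 biological replicates each). A stage was collected once most spores had reached it, so a library may also hold spores of other stages, and each replicate pooled several plates of one collection.

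*N. crassa* prefers ammonium and glutamine as nitrogen sources. Nitrate enters through the transporter NIT-10, nitrate reductase (*nit-3*) turns it into nitrite, and nitrite reductase (*nit-6*) turns nitrite into ammonium. Ammonium reaches glutamate through the NADP-dependent glutamate dehydrogenase (*am*) or through glutamine synthetase (*gln-1*) and glutamate synthase (*en(am)-2*), while the NAD-dependent glutamate dehydrogenase (*gdh-1*) serves mainly in the breakdown of glutamate. NIT-2, a GATA-type transcription factor, activates genes for secondary nitrogen sources when ammonium and glutamine run short. NMR binds NIT-2 and holds it back, and NIT-4 is the activator specific to the nitrate genes.

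The libraries held 51555784 to 84946272 counts. Counts were expressed as CPM (counts divided by the TMM-scaled library total in units of 1e6). Differences between stages were tested by the quasi-likelihood method of edgeR, with Benjamini-Hochberg adjustment over all 8118 genes that passed the filter on low counts. All 9 members passed that filter, *nit-6* through its values at 15 and 360 min. The label of fresh spores was checked against 6 genes of conidia (*con-6*, *con-8*, *con-10*, *con-13*, *eas*, and *ccg-1*). Their summed expression was 4896 to 5088 CPM in fresh spores, then 30.3 to 42.2, 22.6 to 25.0, and 16.6 to 29.4 CPM in the later stages in order, and the actin gene *act* rose from 136 ± 2.17 to 1045 ± 112 CPM (SD, n = 3) over the first interval. Most of the sum in fresh spores was *eas*, with a mean of 4059 CPM. The smallest fall was that of *con-10*, from a mean of 38.3 CPM to 2.82 at 120 min and 3.36 at 360 min. These marker levels moved with every difference between 15 min and later stages given here, and their part in those differences was not tested. In a bulk sample, fewer cells expressing a gene and less RNA per cell cannot be told apart.

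Over the first interval, from 15 to 120 min, the 3 regulators and the nitrate genes *nit-3* and *nit-10* fell, and *en(am)-2* and *gdh-1* rose. The smaller rise of *gln-1* was called with TMM factors but not with RLE (0.13 on the log2 scale, edgeR adjusted p = 0.069) or upper-quartile factors (0.00, edgeR adjusted p = 0.98). By fitted fold change, *nit-3* fell most among the members with more than a few counts in every library, to 0.174 of its level, and *en(am)-2* rose most, by 2.46-fold. Leaving aside *nit-6*, which entered the test only through the stages where it was higher, the other 8 members were all called, 5 lower and 3 higher, and their libraries did not overlap. With RLE or upper-quartile factors the call of *gln-1* dropped out. Of all tested genes 82.7% changed in this interval (43.1% higher and 39.6% lower), and 86.3% had libraries that did not overlap, so a change as such was the common case. The median log2 fold change was -0.49 over those 8 members and 0.04 over all tested genes.

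**Figure D1:**
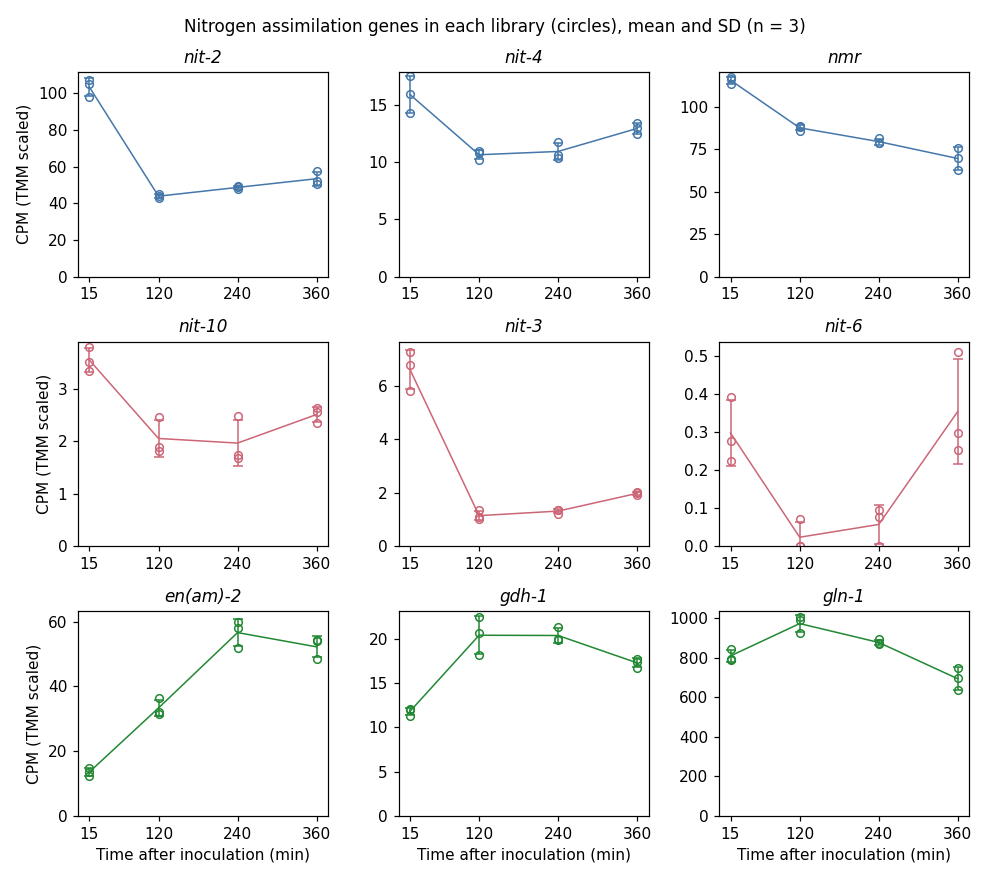
Expression in CPM (vertical axes, each from 0) against time after inoculation in min (horizontal axes) for the 9 genes, with a circle per library and the mean and SD of 3 libraries. The regulators (blue) and nitrate genes (red) are highest or among their highest at 15 min, *nit-6* stays under 0.6 CPM, and *en(am)-2* (green) runs from 13.6 to 56.6 CPM.

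Among the regulators, *nit-2* (NCU09068, chromosome I of NC12, 741884 to 746951) was expressed at 105, 107, and 97.8 CPM in the libraries of 15 min. At 120 min the values were 44.8, 42.8, and 43.9 CPM, at 240 min 48.8, 48.0, and 49.2, and at 360 min 52.3, 57.5, and 50.4. The spore libraries thus stood at about double the level of all 9 later libraries, and no library of a later stage reached them. Over the first interval *nit-2* fell by 1.24 on the log2 scale (standard error 0.06, edgeR adjusted p = 1.3e-10). The 2 later steps were small, 0.15 (standard error 0.06, edgeR adjusted p = 0.073) and 0.13 (standard error 0.06, edgeR adjusted p = 0.072), and did not pass the test. The first was past the threshold without 360 min replicate 2 (0.14, edgeR adjusted p = 0.0497) or replicate 3 (0.14, edgeR adjusted p = 0.041) and with only the 6 libraries compared (0.15, edgeR adjusted p = 0.021). The second depended on the scaling, with 0.34 for library totals (edgeR adjusted p = 0.00071) and 0.17 for upper-quartile factors (edgeR adjusted p = 0.021), and it also passed without 360 min replicate 3 (0.17, edgeR adjusted p = 0.021).

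Expression of *nmr* (NCU04158, chromosome V, 5027349 to 5030561), whose product restrains NIT-2, was 117, 113, and 117 CPM at 15 min and 86.0, 88.3, and 88.6 CPM at 120 min. It was then 78.6, 81.5, and 78.5 CPM at 240 min and 76.0, 70.1, and 62.7 CPM at 360 min. Every stage lay below the one before it without overlap. The log2 fold change was -0.40 in the first interval (standard error 0.06, edgeR adjusted p = 3.0e-05), -0.14 in the second (standard error 0.06, edgeR adjusted p = 0.11), and -0.19 in the third (standard error 0.06, edgeR adjusted p = 0.020). The call of the second interval was gained without 360 min replicate 1 (edgeR adjusted p = 0.037) or replicate 3 (edgeR adjusted p = 0.012), and with only the 6 libraries compared (edgeR adjusted p = 0.0091). That of the third was lost without 240 min replicate 2 (edgeR adjusted p = 0.072) and with only the 6 libraries compared (edgeR adjusted p = 0.055), and with library totals in place of TMM the value was 0.01 (edgeR adjusted p = 0.91).

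The third regulator, *nit-4* (NCU08294, chromosome IV, 2507739 to 2512139), was the lowest of the 3 in counts, with 15.9, 17.5, and 14.3 CPM at 15 min. It gave 10.9, 10.8, and 10.2 CPM at 120 min, 10.6, 10.4, and 11.7 CPM at 240 min, and 12.9, 13.4, and 12.4 CPM at 360 min. Spore libraries were the highest, 120 and 240 min overlapped, and 360 min lay above 240 min. It fell in the first interval by 0.58 on the log2 scale (standard error 0.08, edgeR adjusted p = 1.9e-05) and rose in the third by 0.24 (standard error 0.08, edgeR adjusted p = 0.030). The rise was not past the threshold without 240 min replicate 1 or 2 or 360 min replicate 1 or 2, where the edgeR adjusted p was 0.096, 0.11, 0.062, and 0.090.

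In the nitrate pathway, the nitrate reductase gene *nit-3* (NCU05298, chromosome IV, 5420216 to 5423422) was expressed at 7.26, 6.77, and 5.83 CPM at 15 min. Its 120 min libraries gave 1.09, 1.01, and 1.34 CPM, those of 240 min 1.23, 1.36, and 1.36 CPM, and those of 360 min 1.91, 2.00, and 2.03 CPM. Fresh spores were far above the rest, 120 and 240 min overlapped, and 360 min stood between. In the first interval *nit-3* fell by 2.53 on the log2 scale (standard error 0.14, edgeR adjusted p = 1.4e-09), and 6.73% of all tested genes had a log2 fold change as low or lower. From 240 to 360 min *nit-3* rose by 0.59 on the log2 scale (standard error 0.14, edgeR adjusted p = 0.0054), a call that held when any single library was left out. By 360 min it was at 0.299 of the spore level (log2 fold change -1.74, standard error 0.14, edgeR adjusted p = 4.1e-08).

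Counts of the nitrite reductase gene *nit-6* (NCU04720, chromosome VI, 534862 to 539145) were the fewest of the 9. The libraries of 15 min held 25, 17, and 13 counts, those of 120 min 0, 5, and 0, those of 240 min 8, 0, and 5, and those of 360 min 21, 31, and 18. All 6 libraries of the middle stages were below all 6 libraries of the outer stages. The stage means in order were 0.298 ± 0.0863, 0.0236 ± 0.0409, 0.0573 ± 0.0505, and 0.354 ± 0.138 CPM (SD, n = 3). A count of 0 allows up to 3 counts, or 0.0432 and 0.0372 CPM of library total in 120 min replicates 1 and 3 and 0.0559 CPM in 240 min replicate 2, and this limit covers counting error only. Since *nit-6* passed the filter on low counts through its values at 15 and 360 min, its differences between outer and middle stages are given as counts, with no test. Between 15 and 360 min the log2 fold change of *nit-6* was 0.23 (standard error 0.63, edgeR adjusted p = 0.74), and those libraries overlapped.

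The nitrate transporter gene *nit-10* (NCU07205, chromosome V, 6247448 to 6250397) changed less than *nit-3*. It was expressed at 3.79, 3.34, and 3.52 CPM at 15 min and at 2.46, 1.89, and 1.81 CPM at 120 min. At 240 min it gave 2.47, 1.74, and 1.69 CPM and at 360 min 2.63, 2.35, and 2.55 CPM. The spore libraries were the 3 highest, and the later stages overlapped. Only the first interval passed the test, in which *nit-10* fell by 0.79 on the log2 scale (standard error 0.17, edgeR adjusted p = 0.00077). The third gave 0.35 (standard error 0.17, edgeR adjusted p = 0.13) and passed without 240 min replicate 1 (0.55, edgeR adjusted p = 0.025) and with library totals in place of TMM (0.55, edgeR adjusted p = 0.019).

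Among the genes of glutamate and glutamine metabolism, *en(am)-2* (NCU01744, chromosome II, 2567182 to 2576313) rose most. Its values were 13.6, 14.8, and 12.3 CPM at 15 min, 36.3, 32.2, and 31.5 CPM at 120 min, 51.9, 58.0, and 60.0 CPM at 240 min, and 54.3, 53.9, and 48.5 CPM at 360 min. The first 3 stages were separate and in rising order, and 360 min overlapped with 240 min. This glutamate synthase gene rose by 1.297 on the log2 scale in the first interval (standard error 0.08, edgeR adjusted p = 5.9e-09) and by 0.76 in the second (standard error 0.08, edgeR adjusted p = 6.5e-05). It was the single member called from 120 to 240 min, where 22.3% of all tested genes were called, and the call held when any single library was left out and under the other scalings. At 360 min it stood 3.85-fold above the spore level (log2 fold change 1.94, standard error 0.08, edgeR adjusted p = 7.1e-11).

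The NAD-dependent glutamate dehydrogenase gene *gdh-1* (NCU00461, chromosome III, 3944102 to 3949450) was expressed at 11.30, 11.98, and 12.11 CPM at 15 min and at 22.4, 20.7, and 18.1 CPM at 120 min. At 240 min its values were 19.99, 21.29, and 19.85 CPM and at 360 min 17.7, 16.7, and 17.4 CPM. Spore libraries were the lowest, and the level did not move from 120 to 240 min beyond its spread (log2 fold change -0.00, standard error 0.07, edgeR adjusted p = 0.99). The first interval gave a rise of 0.79 on the log2 scale (standard error 0.07, edgeR adjusted p = 3.3e-07) and the third a fall, with -0.24 (standard error 0.07, edgeR adjusted p = 0.021). Without 240 min replicate 2 (edgeR adjusted p = 0.080) or 360 min replicate 2 (edgeR adjusted p = 0.063) that call was lost, and with library totals it was -0.03 (edgeR adjusted p = 0.75).

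The glutamine synthetase gene *gln-1* (NCU06724, chromosome V, 4393869 to 4397472) was by far the most abundant member. It gave 791, 795, and 845 CPM at 15 min, 1007, 990, and 925 CPM at 120 min, 894, 873, and 868 CPM at 240 min, and 750, 699, and 635 CPM at 360 min. No neighboring stages overlapped, yet the highest library held only a little over 1.5 times the level of the lowest. The log2 fold change was 0.27 in the first interval (standard error 0.06, edgeR adjusted p = 0.0013), -0.15 in the second (standard error 0.06, edgeR adjusted p = 0.10), and -0.34 in the third (standard error 0.06, edgeR adjusted p = 0.00089). The first call depended on the scaling, since the value was 0.13 with RLE factors (edgeR adjusted p = 0.069) and 0.00 with upper-quartile factors (edgeR adjusted p = 0.98), and the third was -0.13 with library totals (edgeR adjusted p = 0.14). The second was past the threshold without 360 min replicate 1 (edgeR adjusted p = 0.039) or replicate 3 (edgeR adjusted p = 0.014), with only the 6 libraries compared (edgeR adjusted p = 0.014), and with upper-quartile factors (edgeR adjusted p = 0.045).

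The NADP-dependent glutamate dehydrogenase gene *am* (NCU01195, chromosome V, 3200862 to 3203095), which the list had meant, followed another course than *en(am)-2*. It was expressed at 980, 967, and 966 CPM at 15 min, 247, 222, and 248 CPM at 120 min, 370, 401, and 396 CPM at 240 min, and 352, 339, and 348 CPM at 360 min. The spore level was the highest and that of 120 min the lowest, with no overlap between any stages. The log2 fold changes were -2.02 (standard error 0.05, edgeR adjusted p = 5.1e-13), 0.70 (standard error 0.05, edgeR adjusted p = 4.7e-06), and -0.17 (standard error 0.05, edgeR adjusted p = 0.019) in the 3 intervals. The last was lost without 240 min replicate 2 (edgeR adjusted p = 0.083), 240 min replicate 3 (edgeR adjusted p = 0.069), or 360 min replicate 2 (edgeR adjusted p = 0.055) and with upper-quartile factors (edgeR adjusted p = 0.051), and with library totals it was 0.04.

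**Figure D2:**
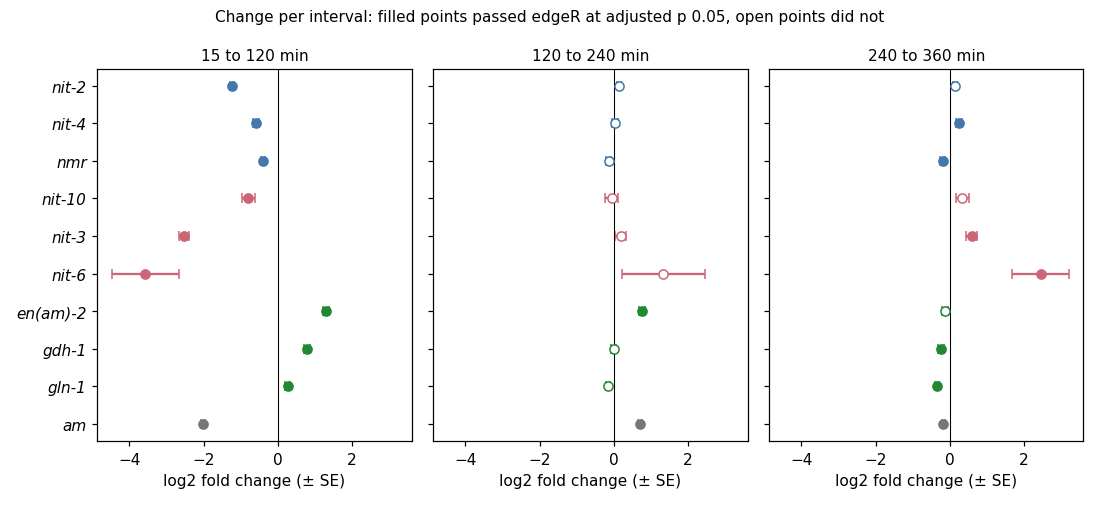
The log2 fold change (horizontal axes, with its standard error) of each member and of *am* over the 3 intervals, with filled points for genes past an edgeR adjusted p of 0.05 and open points for the rest (the points of *nit-6* are a description, as it passed the filter only through its higher stages). In the first panel the regulators, the nitrate genes, and *am* lie left of 0 and *en(am)-2*, *gdh-1*, and *gln-1* right of it, and in the second only *en(am)-2* and *am* are filled.

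In the second interval, from 120 to 240 min, 1 of the 8 members other than *nit-6* changed. Over all tested genes 12.6% were called higher and 9.73% lower. Libraries did not overlap for 4 of these 8 members, against 46.3% of all tested genes. The median log2 fold change was 0.02 over these members and 0.00 over all tested genes. With 0 to 8 counts a library at both stages, *nit-6* was left aside. For the nitrate genes *nit-3* and *nit-10* no call was made by edgeR or by DESeq2, and neither had an unadjusted p under 0.05. Of the 3 regulators 0 were called by edgeR and 0 by DESeq2, and 2 had an unadjusted p under 0.05. When the spread was estimated from only the 6 libraries compared, 4 members were called, with *nit-2*, *nmr*, and *gln-1* added.

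From 240 to 360 min 5 of the 8 members other than *nit-6* changed, with *nit-4* and *nit-3* higher and *nmr*, *gdh-1*, and *gln-1* lower, while 41.8% of all tested genes were called (20.7% higher and 21.1% lower). Libraries of both stages did not overlap for 6 of these 8 members and for 51.8% of all tested genes. The calls of *nit-3* and *gln-1* held when any single library was left out. Of the genes called in this interval among all those tested, 49.6% were higher, but 85.3% were with library totals alone, which also moved the median log2 fold change of all tested genes from 0.02 to 0.22. In the second interval these shares were 56.4 and 72.0%.

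Set against fresh spores, the branching stage of 360 min had 8 of 9 members changed, 6 lower and 2 higher, where 84.0% of all tested genes were called (44.0% higher and 40.0% lower). For 8 members, and for 84.8% of all tested genes, libraries did not overlap. Lower were *nit-2* (log2 fold change -0.95, edgeR adjusted p = 1.6e-09), *nmr* (-0.73, edgeR adjusted p = 6.0e-08), *nit-4* (-0.30, edgeR adjusted p = 0.0041), *nit-3*, *nit-10* (-0.50, edgeR adjusted p = 0.015), and *gln-1* (-0.22, edgeR adjusted p = 0.0043). Higher were *en(am)-2* and *gdh-1* (0.55, edgeR adjusted p = 1.2e-05). With library totals alone *nit-4* was at 0.01 and *gln-1* at 0.08, neither past the threshold, and *nit-10* was lost as well, as it was without 15 min replicate 1 (edgeR adjusted p = 0.052).

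To set the genes side by side, CPM was divided by the length of the gene in kb, introns included. On that scale *am* at 435 ± 3.41 and *gln-1* at 225 ± 8.49 CPM per kb led in fresh spores, followed by *nmr* at 36.0 ± 0.668 and *nit-2* at 20.4 ± 0.987 (SD, n = 3). Then came *nit-4* at 3.61 ± 0.365, *gdh-1* at 2.21 ± 0.0814, *nit-3* at 2.06 ± 0.227, *en(am)-2* at 1.48 ± 0.140, *nit-10* at 1.20 ± 0.0769, and *nit-6* at 0.0696 ± 0.0201. In this order *gdh-1* and *nit-3* lay within their spread, and the other neighbors were apart by more than their SDs. At 120 min *gln-1* led with 270 ± 12.1 CPM per kb against 107 ± 6.53 for *am*, and *gdh-1* (3.81 ± 0.402) and *en(am)-2* (3.65 ± 0.283) did not differ beyond their spread. By 240 min *en(am)-2*, at 6.20 ± 0.458 CPM per kb, was above *gdh-1*, at 3.81 ± 0.148, and it kept that place at 360 min with 5.72 ± 0.352 against 3.23 ± 0.0975. From 120 min on *nit-10* stood above *nit-3*, with 0.851 ± 0.0504 against 0.617 ± 0.0193 CPM per kb at 360 min, the reverse of their order in spores. Only *nit-6* stayed under 0.1 CPM per kb at all stages.

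**Figure D3:**
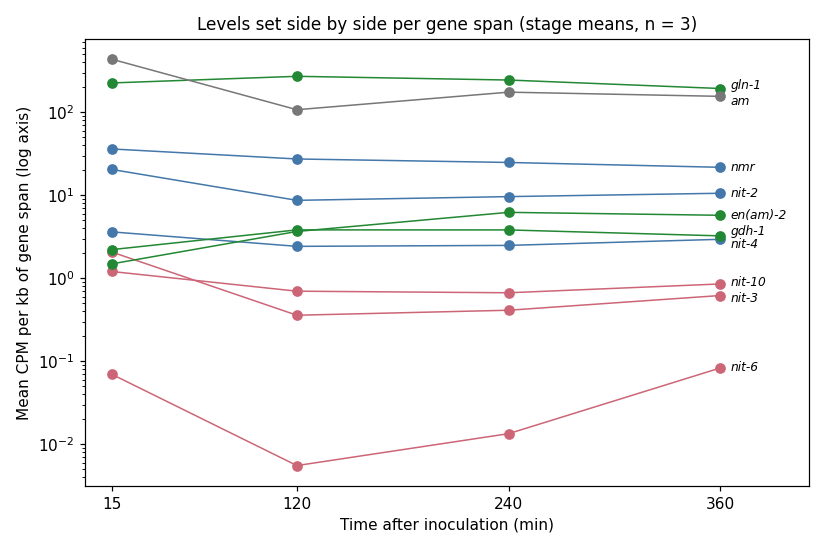
Mean expression per kb of gene span (vertical log axis, CPM per kb, n = 3) against time in min for the 9 members and *am*. The genes span from 0.00552 CPM per kb (*nit-6* at 120 min) to 435 (*am* at 15 min), *am* and *gln-1* change places after 15 min, and *en(am)-2* moves from below *nit-3* to above *nit-4* and *gdh-1*.

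Ratios of the counts of a pair of genes within the same library do not depend on how libraries were scaled. For 8 such ratios, the spread between the 4 stages was compared with that within stages by an exact permutation test over all 369600 assignments of the 12 libraries, with Benjamini-Hochberg adjustment over the 8. The log2 ratio of *nmr* to *nit-2*, transcripts of the restraint relative to those of the activator, was 0.16 ± 0.09 in fresh spores, then 1.00 ± 0.05, 0.71 ± 0.05, and 0.38 ± 0.14 in the later stages in order (SD, n = 3; exact permutation p = 6.5e-05, the smallest possible, adjusted p = 0.00021). It was thus highest at first polar growth and came back toward the spore value by branching. The log2 ratio of *nit-4* to *nit-2* rose from -2.71 ± 0.08 to -2.05 ± 0.06 and then stayed, at -2.16 ± 0.08 and -2.04 ± 0.05 (SD, n = 3; exact permutation p = 0.0024, adjusted p = 0.0032). Without the spore stage that ratio was not past the threshold (exact permutation, adjusted p = 0.15).

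Transcripts of the glutamate synthase gene gained on those of *gdh-1* and *gln-1*, and enzymes were not measured. The log2 ratio of *gdh-1* to *en(am)-2* fell from -0.20 ± 0.16 over -0.71 ± 0.08 and -1.47 ± 0.11 to -1.59 ± 0.11 (SD, n = 3; exact permutation p = 0.00013, adjusted p = 0.00021). That of *gln-1* to *en(am)-2* fell from 5.90 ± 0.19 over 4.87 ± 0.07 and 3.96 ± 0.13 to 3.73 ± 0.05 (SD, n = 3; exact permutation p = 6.5e-05, adjusted p = 0.00021). Between the glutamate dehydrogenases, the log2 ratio of *gdh-1* to *am* went from -6.36 ± 0.06 in spores to -3.55 ± 0.19 at 120 min, and then to -4.25 ± 0.06 and -4.32 ± 0.02 (SD, n = 3; exact permutation p = 0.00013, adjusted p = 0.00021). So *am* kept many more counts than *gdh-1* at all stages, by a margin that was widest in spores.

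Within the nitrate pathway, the log2 ratio of *nit-10* to *nit-3* changed sign, from -0.89 ± 0.15 in spores to 0.83 ± 0.38, 0.56 ± 0.39, and 0.34 ± 0.12 at the later stages (SD, n = 3; exact permutation p = 0.0042, adjusted p = 0.0048), and it was not past the threshold among the 3 later stages alone (exact permutation, adjusted p = 0.23). The log2 ratio of *nit-6* to *nit-3* was -4.47 ± 0.25, -6.19 ± 2.17, -4.94 ± 1.95, and -2.52 ± 0.52 (SD, n = 3), given as a description. Its test (exact permutation p = 0.073, adjusted p = 0.073) cannot decide on a change. *nit-6* passed the filter through its outer stages, and a library with 0 counts takes its value from the added 0.5. The outcome also turned on single middle libraries, 120 min replicate 2 and 240 min replicate 2. The middle stages of this ratio rest on 0 to 8 counts of *nit-6* a library. The ratio of *nit-3* to *gln-1*, transcripts of nitrate reductase against those of glutamine synthetase, was -6.94 ± 0.21, -9.73 ± 0.27, -9.38 ± 0.11, and -8.45 ± 0.16 on the log2 scale (SD, n = 3; exact permutation p = 0.00013, adjusted p = 0.00021). In all, 7 of the 8 ratios passed, and 5 did with 15 min left out. No share over pairs of other genes was determined, and 82.7% of all tested genes changed from 15 to 120 min. The count is therefore no result about the members.

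**Figure D4:**
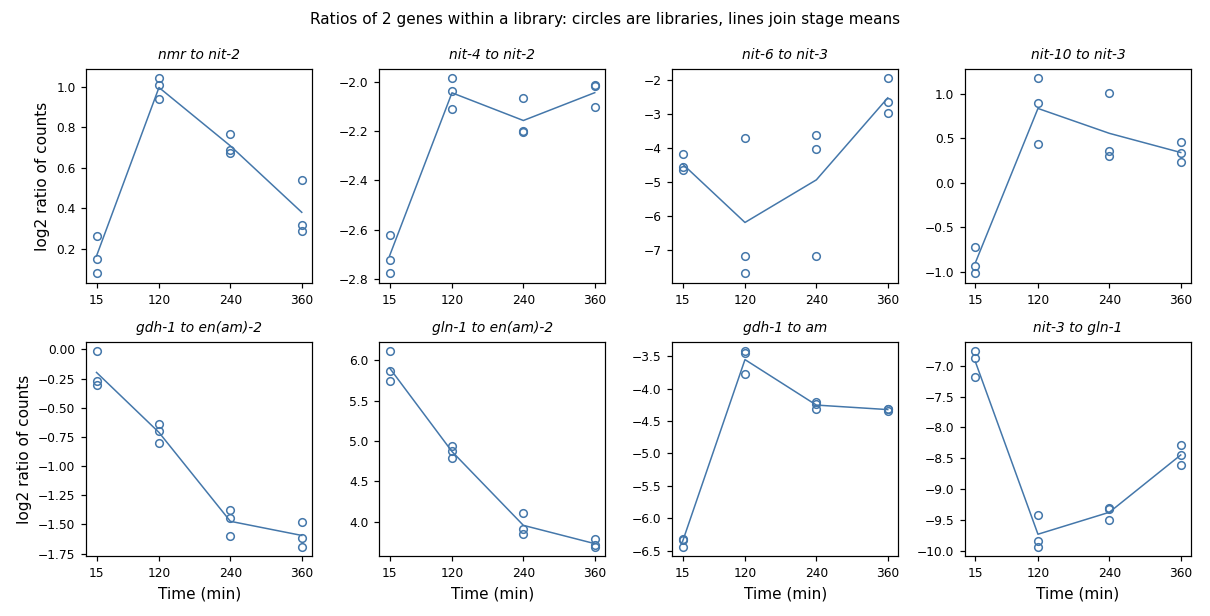
The log2 ratio of counts of 8 pairs of genes (vertical axes, each with its own range) against time in min, with a circle per library and lines through the stage means. The ratio of *nmr* to *nit-2* peaks at 120 min near 1.00, those of *gdh-1* and *gln-1* to *en(am)-2* go down from 15 to 360 min, and the circles of *nit-6* to *nit-3* scatter widely at 120 and 240 min.

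Across the 12 libraries, Pearson's r of log2(CPM + 0.5) was 0.99 between *nit-2* and *nit-3*, 0.92 between *nit-2* and *nit-4*, and 0.77 between *nit-2* and *nmr*. It was 0.96 between *nit-2* and *am*, -0.96 between *nit-2* and *gdh-1*, and -0.84 between *nit-2* and *en(am)-2*. The libraries share their stages and their scaling, and much of each r comes from the difference between spores and later stages, so these values are descriptions. Likeness of this kind was common, since 764 tested genes had an r over 0.95 with *nit-2*, 607 with *nit-3*, 539 with *nmr*, 526 with *en(am)-2*, and 304 with *gdh-1*. For *gln-1* there were 21, for *nit-4* 5, for *nit-6* 1, and for *nit-10* 0. Stage means of *nit-6* were 0.0236 to 0.354 CPM, under the added 0.5, so every r of *nit-6* rests on few counts. Libraries of *nit-10* held 92 to 241 counts. The part of counting error in these low numbers was not tested.

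The gene most like each member by this r over the 12 libraries was *sah-2* for *nit-2* (r = 0.996) and NCU03714 for *nit-4* (0.96). For *nmr* it was NCU06088 (0.995) and for *nit-10* NCU05812 (0.93). For *nit-3* it was *nuo14.8* (0.99), for *nit-6* NCU07447 (0.97), for *en(am)-2* NCU01654 (0.99), for *gdh-1* NCU02417 (0.99), and for *gln-1* *ser-7* (0.98). With library totals in place of TMM the same gene was again first for *nit-4*, *nit-6*, and *gdh-1* and was not for the other 6. Of those, *sah-2*, *nuo14.8*, and NCU01654 then ranked 4, 8, and 5 (r = 0.99 each). NCU06088 ranked 37 (0.96), NCU05812 ranked 85 (0.86), and *ser-7* ranked 156 (0.83), so these likenesses depended on the scaling. Expression of *nuo14.8*, which encodes a subunit of mitochondrial complex I, was 47.9, 2.98, 3.46, and 5.83 CPM in mean at the 4 stages, the order of stages seen in *nit-3*.

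Of 17 related genes outside the members, 5 were higher and 10 lower at 120 min than at 15 min (edgeR, adjusted p threshold 0.05). Over all tested genes 43.1% were higher and 39.6% lower, 82.7% together. At 360 min 6 were higher and 10 lower than at 15 min, against 44.0% higher and 40.0% lower, 84.0% together. The numbers called in either direction were thus near the background, and the split by direction was not tested. Beside *am*, the list of glutamate and glutamine genes held *gln-2*, a further glutamine synthetase gene, and *asn-2*, an asparagine synthetase gene. Unlike *gln-1*, *gln-2* was higher at each step, with 23.5 ± 1.20, 34.1 ± 2.34, 60.5 ± 5.10, and 99.3 ± 14.5 CPM (SD, n = 3) at the 4 stages, and by 360 min it had risen by 2.08 on the log2 scale (standard error 0.10, edgeR adjusted p = 2.5e-10). Expression of *asn-2* was lower at each step, from 42.2 ± 1.08 to 27.8 ± 1.93, 24.4 ± 1.21, and 19.1 ± 0.793 CPM (SD, n = 3), with all 3 steps past the threshold (edgeR adjusted p = 5.5e-07, 0.039, and 0.00066). The second of these steps was lost without 120 min replicate 1 (edgeR adjusted p = 0.12) or 2 (edgeR adjusted p = 0.064), and without 240 min replicate 1 (edgeR adjusted p = 0.15), 2 (edgeR adjusted p = 0.078), or 3 (edgeR adjusted p = 0.061). It was lost too with the replicate number as a block (edgeR adjusted p = 0.062) and with library totals (edgeR adjusted p = 0.12), and the third step was lost with library totals (edgeR adjusted p = 0.079).

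Genes of purine breakdown, a secondary nitrogen source, moved in opposite directions over the first interval. The xanthine dehydrogenase gene *xdh-1* fell from 451 ± 22.1 to 58.2 ± 2.82 CPM and the allantoinase gene *aln-1* from 368 ± 15.7 to 71.6 ± 2.38 CPM (SD, n = 3; edgeR adjusted p = 1.5e-13 and 4.4e-12). The allantoicase gene *alc-1*, whose enzyme acts on the product of allantoinase, rose from 2.21 ± 0.204 to 47.3 ± 3.74 CPM (SD, n = 3), a 21.4-fold change (log2 fold change 4.42, standard error 0.09, edgeR adjusted p = 5.0e-14). The log2 fold change of *alc-1* in that interval stood at percentile 99.1 of all tested genes. The L-amino acid oxidase gene *lao* rose from 0.157 ± 0.0801 to 0.563 ± 0.0106 CPM (SD, n = 3; edgeR adjusted p = 0.00054), and its libraries of 15 min held 9, 15, and 5 counts.

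Amino acid permease genes fell with the start of growth. The permease gene for neutral amino acids, *mtr*, went from 1089 ± 6.31 to 294 ± 3.51 CPM, that for basic amino acids, *pmb*, from 327 ± 11.1 to 124 ± 5.86 CPM, and the general permease gene *pmg* from 7.98 ± 0.0846 to 0.727 ± 0.203 CPM (SD, n = 3; edgeR adjusted p = 1.3e-13, 1.3e-10, and 1.6e-08). The fourth gene of that list, *aap-2*, held 0 to 14 counts a library and was not called in any interval. Among these genes the levels of *mtr* and *pmb* at 360 min, 310 ± 1.93 and 117 ± 10.5 CPM (SD, n = 3), were still under 0.4 of the spore level.

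The other GATA factors did not follow a shared course. From 15 to 120 min *wc-1* (log2 fold change -1.76, standard error 0.32, edgeR adjusted p = 0.00018), *asd-4* (-0.69, standard error 0.05, edgeR adjusted p = 4.2e-08), and *sub-1* (-0.50, standard error 0.08, edgeR adjusted p = 5.2e-05) fell, as *nit-2* did. In the same interval *wc-2* (0.70, standard error 0.06, edgeR adjusted p = 8.3e-08) and *sre* (0.31, standard error 0.05, edgeR adjusted p = 6.6e-05) rose, the last of which was lost with upper-quartile factors (0.05, edgeR adjusted p = 0.40). The gene of PCO-1, which activates purine breakdown genes, was at 54.5 ± 2.83 CPM at 15 min and 57.4 ± 1.72 at 120 min (SD, n = 3; edgeR adjusted p = 0.24), with a log2 fold change of 0.08 for *pco-1* that was -0.06 with RLE factors (edgeR adjusted p = 0.38) and -0.19 with upper-quartile factors (edgeR adjusted p = 0.0078). Its call between 15 and 360 min (0.17, edgeR adjusted p = 0.018) was lost with RLE factors (0.01, edgeR adjusted p = 0.86). For *pco-1* and these GATA factors edgeR and DESeq2 made 0 calls of 6 in either later interval, and 0 had an unadjusted p under 0.05, where 22.3 and 41.8% of all tested genes were called. With library totals *wc-2* (0.26, edgeR adjusted p = 0.0054), *pco-1* (0.30, edgeR adjusted p = 0.0034), and *sre* (0.20, edgeR adjusted p = 0.0067) were called higher from 240 to 360 min. From 120 to 240 min *asd-4* was called lower with only the 6 libraries compared (edgeR adjusted p = 0.036) and without 360 min replicate 3 (edgeR adjusted p = 0.030).

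**Figure D5:**
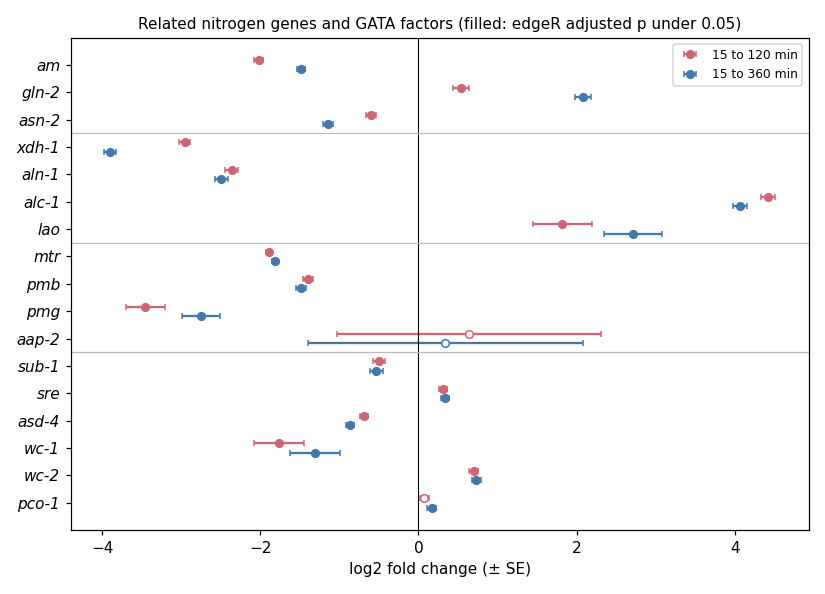
The log2 fold change against 15 min (horizontal axis, with its standard error) of the 17 related genes at 120 min (red) and 360 min (blue), grouped by list from glutamate and glutamine genes at the top to GATA factors and *pco-1* at the bottom. Filled points passed edgeR at an adjusted p of 0.05. The points of *alc-1* lie beyond 4, those of *xdh-1* near -3 and -4, and *aap-2* has the widest error bars.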

How the data were processed

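RNA-seq libraries of germinating *N. crassa* spores were grouped by the time point in the sample labels (4 stages of 3 replicates). The authors trimmed reads, aligned them with HISAT2 2.1.0 to version 12 of the OR74A genome with the strand setting, removed alignments of low mapping quality, and ran StringTie 1.3.3b limited to the reference annotation. The deposited counts are whole numbers per gene made from StringTie's coverage by a script of that package, so they are rounded estimates. Since a read pair can enter a count through both mates, counting error can be larger than these counts imply. A second deposited table, from the program LOX, holds the authors' own comparison of pooled stages and was not used.

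Counts were analysed with edgeR 4.0.16 in R 4.3.3 (TMM factors, filterByExpr, 1 mean per stage over all 12 libraries, quasi-likelihood test, Benjamini-Hochberg adjustment over all tested genes, threshold 0.05). A standard error is the size of the log2 fold change divided by the square root of F. Ratios used log2 of counts plus 0.5 and an exact permutation test in Python 3.11.15 with SciPy 1.17.1, numpy 2.4.6, and pandas 2.3.3 (plots: matplotlib 3.10.9). The edgeR fit with its main settings and the exact permutation test were tested on simulated data. The simulation for edgeR changed 200 genes, whereas 82.7% of all tested genes were called in the first interval. It therefore did not test the scaling under changes as widespread as those in the data. Alternatives were RLE and upper-quartile factors, library totals alone, no filter, DESeq2 1.42.0, a replicate block, only the 6 libraries compared, each library left out, a pseudocount of 1, and 15 min left out.

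Symbols and coordinates come from RefSeq's table of NC12, in which 10590 of 10592 IDs were found. It gives no products or coding lengths, so related genes were listed by ID and symbol, and levels were divided by gene span. The members, lists, and tests were chosen with earlier results of these data known. Named genes are the members, the related genes, the markers, and the gene most like each member. *ndk-1*, fixed as a marker of growth under a wrong name, was left out. p-values measure the spread between plates pooled by collection.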

Additional observations from a re-analysis of the deposited data

How the results depend on the processing

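Counts of members called here include *nit-6*, so they describe the processing only. That gene passed the filter on low counts through its values at 15 and 360 min. Without *nit-6*, 0, 7, 3, and 0 of 8 members were not called from 15 to 120, 120 to 240, 240 to 360, and 15 to 360 min. Of all tested genes 82.7, 22.3, 41.8, and 84.0% were called in these comparisons. The number of members changed from 15 to 120 min was 8 or 9 under all alternatives. From 120 to 240 min it was 1, but 2 with upper-quartile factors, 4 with only the 6 libraries compared, and 1 to 4 when single libraries were left out. From 240 to 360 min it was 6, and 2 to 7 when single libraries were left out. Between 15 and 360 min it was 8, and 5 with library totals alone. Over all genes, 1812 changed from 120 to 240 min and 1102 to 2578 when single libraries were left out, the lowest without 240 min replicate 3 and 1122 without 240 min replicate 2. The highest came without 360 min replicate 3, which is outside this comparison but enters the shared estimate of the spread. Its counts differed from those of replicates 1 and 2 by a mean chi-square per gene of 715 and 535, against 38.7 between those replicates. For 15 min replicates 2 and 3 it was 465. Of the 8 ratios 7 passed, 7 or 8 did without single libraries, and 5 did with 15 min left out. The ratio that passed only without single libraries was *nit-6* to *nit-3*, on which the test cannot decide.

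Directions turned with library totals alone from 240 to 360 min for *nmr* (log2 fold change 0.011), *am* (0.036), *mtr* (0.19), and *sre* (0.20), and between 15 and 360 min for *nit-4* (0.0051) and *gln-1* (0.076). With upper-quartile factors *pco-1* turned to -0.19 from 15 to 120 min and to -0.078 between 15 and 360 min. In these intervals the median log2 fold change of all tested genes was 0.22 and 0.35 with library totals, against 0.02 and 0.05, and -0.22 and -0.20 with upper-quartile factors, against 0.04 and 0.05.

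Replicate numbers did not enter the main test as a pairing. Libraries of the same number had correlations of their deviations from the stage means between -0.09 and 0.19, with 4 of 18 over 0.1. Those of different numbers had correlations between -0.21 and 0.16, with 2 of 36 over 0.1. Of 12 libraries 3 correlated best with their own number. With the number as a block, 6663, 1731, 3264, and 6767 genes changed, against 6713, 1812, 3390, and 6816 without it, and 9, 1, 6, and 8 members with *nit-6* counted. Among the genes named, the block ended the call of *asn-2* from 120 to 240 min (edgeR adjusted p = 0.062) and gave one for *act* in that interval (edgeR adjusted p = 0.016), and it changed no other call. At the depth of these libraries only *nit-6* among the members was at the limit of detection.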

Other observations

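Among the GATA factors, *wc-1* varied more between replicates than the others. Its libraries gave 197, 111, and 189 CPM at 15 min, 38.2, 69.5, and 38.6 CPM at 120 min, 79.9, 42.7, and 34.5 CPM at 240 min, and 71.6, 58.5, and 69.8 CPM at 360 min. The spore libraries were the 3 highest, and single libraries at 120 and 240 min held almost or over double the level of the others of their stage.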
